A study of Mus musculus with 12 samples.

Results

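Spermatozoa of the cauda epididymidis were compared directly with spermatozoa of the corpus, the segment just upstream, by CpG methylation, and no testicular sample entered the test. The 6 samples compared were the 3 cauda and the 3 corpus samples among the 12 samples of the series, which also holds 3 testicular and 3 caput samples. In reduced representation bisulfite sequencing (RRBS), DNA is cut by a restriction enzyme and short CpG-rich pieces are sequenced, and a methylated cytosine is one that remains a cytosine after bisulfite treatment. Methylation of a site was the percentage of its reads that were methylated, at 13917 autosomal CpG sites of GRCm38, each covered by 10 reads or more in all 12 samples.

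All samples came from untreated transgenic males aged 10 to 12 weeks, of the B6D2F1 strain with the CAG/su9-DsRed2 and Acr3-EGFP transgenes (line RBGS002Osb). The CAG promoter is ubiquitous and drives a red fluorescent protein carried into mitochondria, and the second transgene labels the acrosome green. Sperm cells positive for both were collected by fluorescence-activated cell sorting, after retrograde perfusion of the cauda or mincing of the corpus. The study's abstract names this sort for all segments, while its methods describe it for the segments upstream of the cauda and centrifugation for perfused cauda spermatozoa. Isolation thus differed with the segment, and its part in a difference between cauda and corpus cannot be told apart. Each sample was a pool of 4 mice, so the spread between samples is a spread between pools. A percentage from a pool does not tell apart a mixture of methylated and unmethylated spermatozoa from partial methylation within cells. It also does not separate reads of extracellular DNA bound to spermatozoa, which the study proposes for caput spermatozoa of high red fluorescence. The study saw subpopulations by red fluorescence to a lower extent in the corpus. The part of such DNA was not tested here.

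Spermatozoa leave the testis immotile and pass through the caput, the corpus and the cauda, where they are stored. They become motile and able to fertilise during this transit, while their chromatin is packed with protamines and transcription is silent. In most mammalian cells, CpG-dense promoters of active and developmental genes are unmethylated, and the rest of the genome is largely methylated. Imprinted genes keep a methylation mark of 1 parent, so that in sperm the paternal imprint is methylated and maternal imprints are not.

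Reads summed over the sites of the table numbered 784708, 679576 and 765781 in cauda replicates 1, 2 and 3, and 429606, 848746 and 616626 in corpus replicates 1, 2 and 3. Per site, the median number of reads was 40, 34 and 39 for cauda and 20, 42 and 30 for corpus. Corpus replicate 1 thus had the fewest reads of the 6 samples. The Pearson correlation across sites was 0.938 between corpus replicates 1 and 2, 0.931 between replicates 1 and 3 and 0.955 between replicates 2 and 3. It lay between 0.982 and 0.983 for the 3 pairs of cauda samples, above all corpus pairs. Between cauda and corpus samples it was 0.937 to 0.940 for corpus replicate 1, 0.959 to 0.960 for replicate 2 and 0.951 to 0.953 for replicate 3. Corpus replicate 2 was thus closer to each cauda sample than to the other corpus samples. Sites are not independent replicates, and these correlations are descriptions. The class means and the counts of called sites are also given without corpus replicate 1.

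Few sites of the table lie in imprinted genes, and they were matched by gene, whether or not they lie in an imprint control region. The site near H19, a paternally imprinted noncoding RNA gene, was methylated at 98.9, 98.4 and 97.1% in the cauda samples and at 97.1, 94.1 and 89.3% in the corpus samples. The 4 sites of the maternal imprint shared by Zrsr1 and Commd1 had mean methylation of 0, 0 and 3.41% in cauda and 0, 7.91 and 16.9% in corpus. At the 2 sites of Blcap, a neighbour of the imprinted gene Nnat, methylation was 4.76, 2.53 and 1.35% in cauda and 0, 1.61 and 0% in corpus. The groups overlapped at Zrsr1 and Commd1 and at Blcap, and at H19 the lowest cauda and the highest corpus sample had equal values. Not all sites of imprinted genes had such levels. The 4 sites of the paternally imprinted Rasgrf1 averaged 0% in cauda and 1.66% in corpus, and 7 sites of the maternally imprinted Trappc9 averaged 42.1% in both.

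Cauda spermatozoa had fewer sites at intermediate methylation than corpus spermatozoa. The share of autosomal sites with methylation from 20 to 80% was 10.9, 11.1 and 10.9% in the cauda samples and 18.3, 20.4 and 18.5% in the corpus samples. All cauda values lay below all corpus values, and the means were 10.9 ± 0.132% and 19.1 ± 1.15% (SD, n = 3 each). The exact two-sided permutation test over the 6 samples gave p = 0.1, the smallest value that 3 samples against 3 allow, and 0.14 after Benjamini-Hochberg adjustment over the 7 values tested this way. Without corpus replicate 1 the corpus mean was 19.4%. Testicular samples had 11.4 ± 0.558% of sites in this range and caput samples 22.6 ± 1.48% (SD, n = 3 each).

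**Figure D1:**
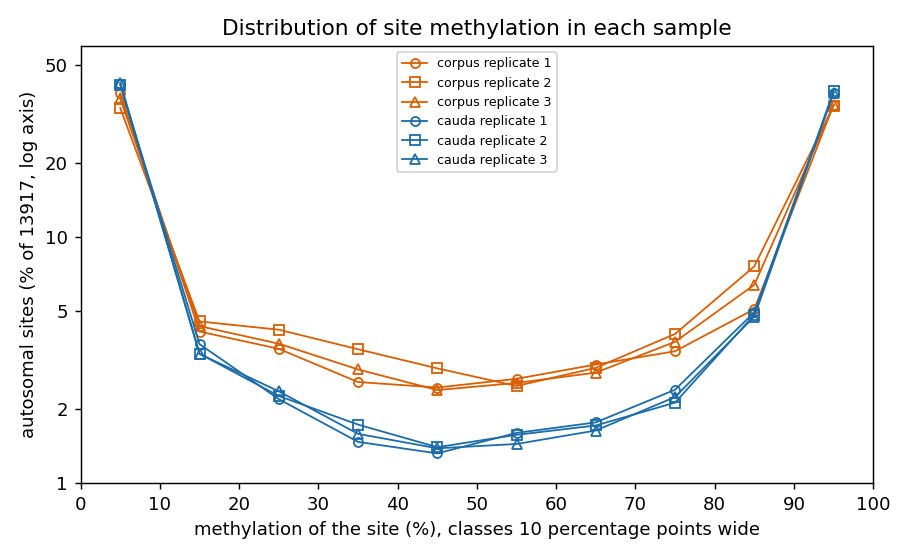
Share of the 13917 autosomal sites (log axis, percent of sites) in classes of methylation 10 percentage points wide, with 1 line per sample for 3 corpus and 3 cauda samples. In the class from 40 to 50% the cauda samples hold 1.32 to 1.4% of sites and the corpus samples 2.39 to 2.93%.

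The mean over all autosomal sites differed less than its components. It was 48.7, 48.9 and 48.2% in the cauda samples and 48.2, 50.7 and 49.4% in the corpus samples, so that the groups overlapped. The difference of cauda minus corpus was -0.857 percentage points, with p = 0.3 in the exact permutation test and 0.3 after adjustment. Without corpus replicate 1 it was -1.48 percentage points with the groups apart (p = 0.1, exact permutation test, the smallest possible), and without corpus replicate 2 it was -0.215. Its sign depended on the weight of the sites. When the reads of all sites were pooled within a sample, the values were 51.6, 51.7 and 50.9% in cauda and 41.4, 52.4 and 48.8% in corpus, a difference of 3.85 percentage points (p = 0.4, exact permutation test). Corpus replicate 1 was the lowest of the 6 samples on this scale. Corpus replicate 2 lay above all cauda samples and replicate 3 below them, so the size of this difference rested largely on corpus replicate 1.

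The small difference of the overall mean combined changes in opposite directions at sites of low and of high testicular methylation. Sites were sorted by the pooled reads of the testicular samples, which took no part in the comparison of cauda with corpus. At the 6305 sites under 20% in testicular spermatozoa, mean methylation was 2.48, 2.55 and 2.28% in cauda and 5.41, 7.93 and 6.35% in corpus. All cauda samples lay below all corpus samples (2.44 ± 0.138% against 6.57 ± 1.27%, SD, n = 3 each), and the testicular mean was 2.51 ± 0.196% (SD, n = 3). At the 6102 sites above 80% in testicular spermatozoa, the order turned, with 96.1, 96.2 and 95.9% in cauda and 92.2, 93.4 and 93.2% in corpus. Here all cauda samples lay above all corpus samples (96.1 ± 0.121% against 92.9 ± 0.691%, SD, n = 3 each), and the testicular mean was 95.7 ± 0.357% (SD, n = 3). Each of these differences had p = 0.1 in the exact permutation test (0.14 adjusted). Without corpus replicate 1 they were -4.71 and 2.73 percentage points. At the 1510 sites from 20 to 80% in testicular spermatozoa, the cauda values of 49.7, 51.1 and 46.9% overlapped the corpus values of 49.1, 56.7 and 51.8% (p = 0.3, exact permutation test, 0.3 adjusted). This difference of -3.3 percentage points was -4.99 without corpus replicate 1, where the groups were apart (p = 0.1, exact permutation test), and -1.23 without corpus replicate 2.

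**Figure D2:**
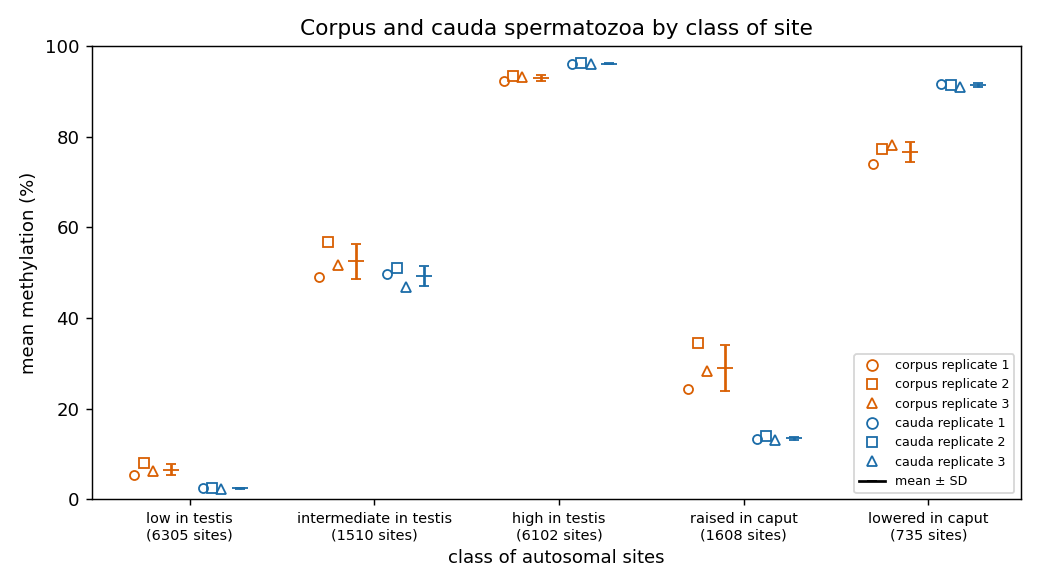
Mean methylation (percent) of each corpus and cauda sample over 5 classes of autosomal sites, with 1 symbol per sample and bars for the mean ± SD of 3 samples. Cauda samples lie below corpus samples at the 6305 sites low in testis and the 1608 sites raised in caput, and above them at the 6102 sites high in testis and the 735 sites lowered in caput.

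The excess of corpus over cauda at sites low in testicular spermatozoa was larger where CpGs were sparse. At the 605 such sites with 1 to 4 CpGs in the 201 bp around the site, methylation was 5.36, 5.21 and 4.81% in cauda and 10.9, 16.6 and 13.4% in corpus. At the 1932 sites with 13 or more CpGs it was 1.01, 1.23 and 1.05% in cauda and 1.69, 2.43 and 1.9% in corpus. In both strata all cauda samples lay below all corpus samples, and the difference of means was -8.5 percentage points in the sparse stratum and -0.912 in the dense stratum. A similar gradient followed distance from genes. At the 4174 sites under 2 kb from the start of a coding gene, cauda samples had 1.42, 1.36 and 1.19% and corpus samples 2.65, 3.24 and 2.69%. Beyond 50 kb, at 682 sites, cauda samples had 5.84, 6.04 and 5.82% and corpus samples 13.3, 20.4 and 16.5%. CpG density and distance go together, and their separate parts were not tested.

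At sites above 80% in testicular spermatozoa the difference varied less. It was 3.13 percentage points at 2580 sites with 1 to 4 CpGs, 3.33 at 2719 sites with 5 to 8 and 3.38 at 541 sites with 9 to 12. At the 262 methylated sites with 13 or more CpGs it was 0.532, and the cauda samples, at 92.9, 94.6 and 92.8%, overlapped the corpus samples, at 92.3, 94.1 and 92.1%.

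**Figure D3:**
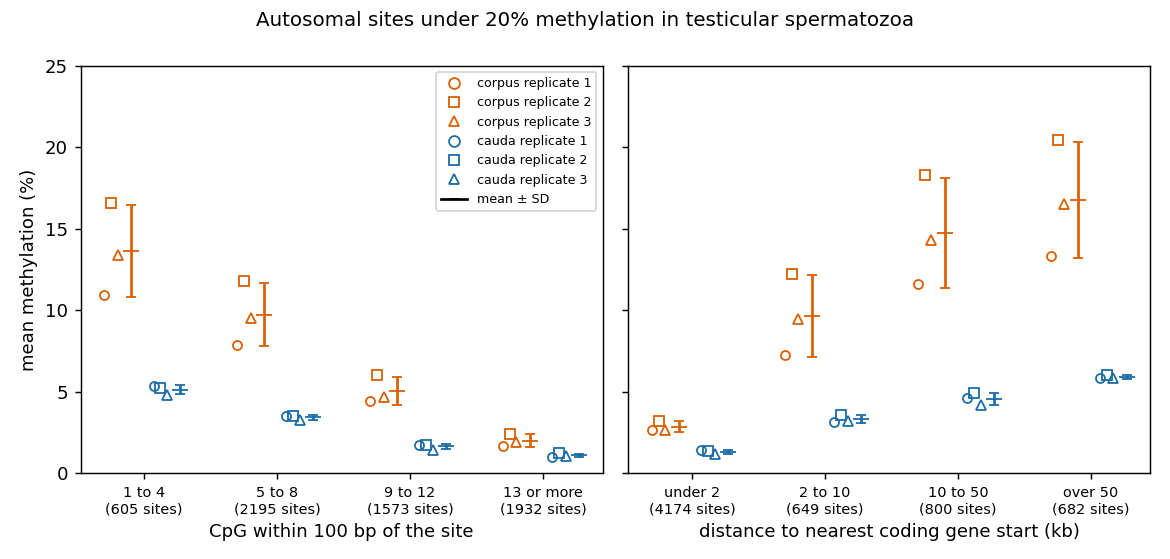
Mean methylation (percent) of each corpus and cauda sample at autosomal sites under 20% in testicular spermatozoa, by the number of CpGs in 201 bp and by distance (kb) to the nearest coding gene start, with bars for the mean ± SD of 3 samples. Corpus means run from 2.01% at the densest to 13.6% at the sparsest sites, and cauda means from 1.1 to 5.13%.

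Sites that differed between caput and testicular spermatozoa showed larger differences between cauda and corpus than the classes of testicular level. Neither cauda nor corpus samples entered the choice of these sites, which used the thresholds applied below. Caput spermatozoa were higher than testicular spermatozoa at 1608 sites (11.6% of autosomal sites) and lower at 735 sites (5.28%). At the 1608 raised sites, mean methylation was 24.3, 34.4 and 28.2% in the corpus samples and 13.4, 13.9 and 13.1% in the cauda samples. All cauda samples lay below all corpus samples, with a difference of -15.5 percentage points and -17.9 without corpus replicate 1. Caput samples had a mean of 57.8 ± 19.5% and testicular samples of 13.7 ± 0.752% at these sites (SD, n = 3 each). At the 735 lowered sites, mean methylation was 74, 77.3 and 78.2% in corpus and 91.6, 91.5 and 90.8% in cauda, a difference of 14.8 percentage points. Without corpus replicate 1 this difference was 13.5. Caput samples had 52 ± 20% and testicular samples 91.7 ± 0.89% here (SD, n = 3 each). The exact permutation test gave p = 0.1 for each class (0.14 adjusted).

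Site by site, logistic regression on the pooled reads called a differentially methylated site (DMS) at a Benjamini-Hochberg adjusted p under 0.01 and a difference of pooled methylation above 25 percentage points. Of the 13917 autosomal sites, 174 (1.25%) were hypermethylated and 404 (2.90%) hypomethylated in cauda compared with corpus spermatozoa. Over the hypermethylated DMS, mean methylation was 91.6, 91.6 and 91.5% in the cauda samples and 48.1, 65.9 and 58.6% in the corpus samples. Over the hypomethylated DMS it was 11.8, 11.4 and 10.9% in cauda and 39.2, 44.3 and 44.1% in corpus. These means describe sites chosen for their difference. The cauda samples were close to each other in both sets, and corpus replicate 1 was the farthest from them in the hypermethylated set only.

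The pooled test does not include the spread between samples. At 131 of the 174 hypermethylated DMS (75.3%), all 3 cauda samples lay above all 3 corpus samples, which was so at 596 of all autosomal sites (4.28%). At 293 of the 404 hypomethylated DMS (72.5%), all 3 cauda samples lay below all 3 corpus samples, as they did at 961 of all autosomal sites (6.91%). Tests that include the spread called fewer sites at an adjusted p under 0.05 and the same difference. Called by limma were 46 hypermethylated (0.331%) and 89 hypomethylated sites (0.640%), each also a DMS of the pooled test. Only 2 (0.0144%) and 4 sites (0.0287%) were called by the quasi-likelihood test of edgeR.

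Single corpus samples moved the counts. Without corpus replicate 1, the pooled test called 156 hypermethylated (1.12%) and 524 hypomethylated sites (3.77%), of which 112 and 336 were among the DMS of all 6 samples. Without corpus replicate 2 it called 326 (2.34%) and 363 (2.61%). Among the 5490 autosomal sites with at least 20 reads in each of the 6 samples, 43 were hypermethylated (0.783%) and 158 hypomethylated (2.88%). A difference above 40 percentage points was reached by 19 hypermethylated (0.137%) and 46 hypomethylated sites (0.331%). The methylation of a site ranged over more than 25 percentage points between replicates at 2419 sites in corpus (17.4%) and at 700 sites in cauda (5.03%). Between corpus replicates 2 and 3 alone it did so at 1001 sites (7.19%), where a range over fewer samples is also smaller by construction. It did so at 3630 sites in caput (26.1%) and at 779 sites in testicular samples (5.6%).

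Testicular levels lay on the cauda side of nearly all DMS. The mean of the testicular samples was nearer to the cauda mean than to the corpus mean at 550 of 578 DMS, or 95.2% (Wilson 95% interval 93.1 to 96.6%), and at 64.1% of the 11414 autosomal sites without a tie. The tied autosomal sites numbered 2503, none of them a DMS. The interval covers counting error only, since reads from PCR without molecular identifiers are not independent molecules and neighbouring sites share reads. DMS were also chosen for their gap between cauda and corpus, and corpus samples spread more than cauda samples. A gap made by an outlying corpus pool leaves the testicular level nearer to cauda by construction, so the share is a description. At the hypermethylated DMS the testicular samples averaged 87.8, 90.8 and 89.4%, and at the hypomethylated DMS 12.9, 16.3 and 15.4%. Caput samples averaged 34.5, 61.4 and 67.1% at the hypermethylated and 80.2, 49.3 and 47.1% at the hypomethylated DMS. Corpus means lay between the caput and the cauda mean at 345 of the 404 hypomethylated DMS (85.4%) and at 105 of the 174 hypermethylated DMS (60.3%), against 49.3% of the autosomal sites where the corpus mean equalled neither.

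The calls of caput against testicular spermatozoa, which share no sample with this comparison, overlapped the DMS in the opposite direction. Of the 404 hypomethylated DMS, 343 (84.9%) were raised in caput, beside 11.6% of all autosomal sites. These 343 made up 21.3% of the raised sites, and 2.90% of all autosomal sites were hypomethylated. Of the 174 hypermethylated DMS, 125 (71.8%) were lowered in caput, beside 5.28% of all autosomal sites. These 125 made up 17% of the lowered sites, and 1.25% of all autosomal sites were hypermethylated. A total of 61 hypomethylated and 48 hypermethylated DMS met neither caput call. At these 61 sites the testicular samples averaged 36.1 ± 2.86%, caput 51.6 ± 10.9%, corpus 57 ± 4.18% and cauda 27.6 ± 2.2% (SD, n = 3 each). The remaining DMS was a site in an intron of Col4a1, a basement membrane collagen gene, at chr8:11308857, which was singled out after its values were seen. It had 75, 100 and 97.4% methylation in cauda and 12.5, 80 and 85.7% in corpus, where the groups overlapped, and 100% in each caput sample.

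DMS lay in promoters less often than the measured sites did. Within 2 kb of a start site were 160 of the 578 DMS, or 27.7% (Wilson 95% interval 24.2 to 31.5%), and 43.8% of all autosomal sites. By direction, 31 of 174 hypermethylated DMS (17.8%) and 129 of 404 hypomethylated DMS (31.9%) were in promoters. Introns held 39.7% of the hypermethylated and 20.5% of the hypomethylated DMS, beside 22% of all autosomal sites. Regions between genes held 36.8 and 39.1%, beside 28%. Soft-masked repeats held 10.3% of the hypermethylated and 12.9% of the hypomethylated DMS, beside 15.9% of all autosomal sites. A CCGG, the recognition sequence of MspI, the usual enzyme of RRBS, lay in the 101 bp around 94.3 and 93.6% of these DMS and around 95% of all autosomal sites. DMS were called on each of the 19 autosomes, with the lowest share on chromosome 12 (2.86% of 594 sites) and the highest on chromosome 15 (5.69% of 633 sites).

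The 6 hypermethylated loci with the largest differences of group means among DMS without overlap lay in or near Tsku, Sdk2, Gja3, Gm43607, Rxfp1 and Ipcef1. Tsku encodes tsukushi, a secreted leucine-rich proteoglycan, and its site lies in an intron at chr7:98354708. Methylation there was 94.7, 88.9 and 93.9% in cauda, from 27 to 38 reads, and 0, 68.4 and 36.4% in corpus, from 10 to 19 reads. The cauda samples were all high and the corpus samples spread widely, and the value of 0 came from 10 reads, with a Wilson 95% interval up to 27.8%. The difference of means was 57.6 percentage points, with an adjusted p of 1.08e-08 in the logistic regression and 0.0764 in limma.

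Sdk2 encodes sidekick 2, a cell adhesion molecule of the nervous system, and its intronic site at chr11:114015837 had 91, 97.4 and 92.6% methylation in cauda and 14.8, 68.6 and 29.2% in corpus, from 24 to 70 reads. The difference was 56.2 percentage points, with an adjusted p of 1.21e-15 in the logistic regression and 0.0455 in limma. An intergenic site at chr14:57034389, nearest to the start of the connexin gene Gja3, had 96.6, 100 and 97.1% in cauda and 12.5, 60.4 and 60% in corpus, from 10 to 87 reads. It differed by 53.6 percentage points, with an adjusted p of 5.87e-20 in the logistic regression and 0.0363 in limma. In each case corpus replicate 1 was the lowest of the 6 samples.

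The site at chr3:121713551, in the promoter of the long noncoding RNA Gm43607, had 100, 100 and 79.2% methylation in cauda and 33.3, 68.2 and 17.2% in corpus, from 12 to 46 reads. At chr3:79742631, an intergenic site nearest to the relaxin receptor gene Rxfp1, the values were 97.3, 96.4 and 100% in cauda and 20, 84.6 and 31.6% in corpus, from 10 to 73 reads. It was not called without corpus replicate 3, where the pooled difference was 21.9 percentage points, beside 30.9 with all samples. Without corpus replicate 2 the pooled difference was 70.4 percentage points. In an intron of Ipcef1 at chr10:7047672, cauda samples had 100, 95 and 100% and corpus samples 0, 78.8 and 60.5%, from 17 to 79 reads. The difference of means at Ipcef1 was 51.9 percentage points, and 28.7 without corpus replicate 1. Corpus replicate 2 was the highest corpus sample at each of these 3 sites. Over the 6 hypermethylated loci, testicular means were from 93.4 to 98.8% and caput means from 36.5 to 71.7%.

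The 6 hypomethylated loci chosen in the same way lay in or near Prr23a3, Adamts20, Gm26917, F2r, Fhit and Slc23a4. The largest difference of the 6 was at chr9:98864517, in the promoter of Prr23a3, a member of a family of similar genes. No methylated read was found there in the cauda samples, among 21, 21 and 16 reads, while corpus samples had 90, 47.6 and 58.8% from 10, 21 and 17 reads. A value of 0 in 21 reads has a Wilson 95% interval up to 15.5%. The testicular samples also had 0% here, and the difference of means was -65.5 percentage points, with an adjusted p of 7.98e-13 in the logistic regression and 0.0343 in limma.

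Adamts20 encodes a secreted metalloprotease of the extracellular matrix. Its intronic site at chr15:94430266 had 8.11, 0 and 7.14% methylation in cauda and 85.7, 56.2 and 54.3% in corpus. F2r encodes the thrombin receptor PAR1, and the site at chr13:95604138 in its coding exon had 4.55, 6.25 and 0% in cauda and 90.9, 43.1 and 47.1% in corpus. Coverage was 14 to 56 reads at the first and 17 to 65 reads at the second site. The differences were -60.3 and -56.7 percentage points, with adjusted p of 8.72e-15 and 4.64e-19 in the logistic regression and 0.0343 and 0.0455 in limma. At both sites corpus replicate 1 was the highest sample, and testicular means were 12.2 ± 2.96% and 9.98 ± 7.58% (SD, n = 3 each).

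The site at chr17:39844767 in Gm26917 had 18.2, 0 and 0% in cauda and 87.7, 26.9 and 79.5% in corpus. These values came from 11, 11 and 21 reads in cauda and 65, 26 and 78 reads in corpus. Of the 39 measured sites within 1 kb, 5 were called. The annotation there overlaps the sequence of the 45S ribosomal RNA precursor, which is present in many copies, so its reads cannot be assigned to 1 locus. An intergenic site at chr14:11236482, nearest to Fhit, had 10, 4.55 and 0% in cauda and 33.3, 46.7 and 95.2% in corpus. Its difference of means was -53.6 percentage points, and -35.2 without corpus replicate 3. At chr6:34997917, nearest to Slc23a4, cauda samples had 33.3, 0 and 4.84% and corpus samples 85.7, 56 and 46.2%. These 3 sites had 10 to 78 reads per sample. The cauda and corpus samples did not overlap at these sites, which was a condition of their choice. Over the 12 named sites the adjusted p was 0.0343 to 0.0967 in limma and 0.126 to 0.317 in edgeR.

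**Figure D4:**
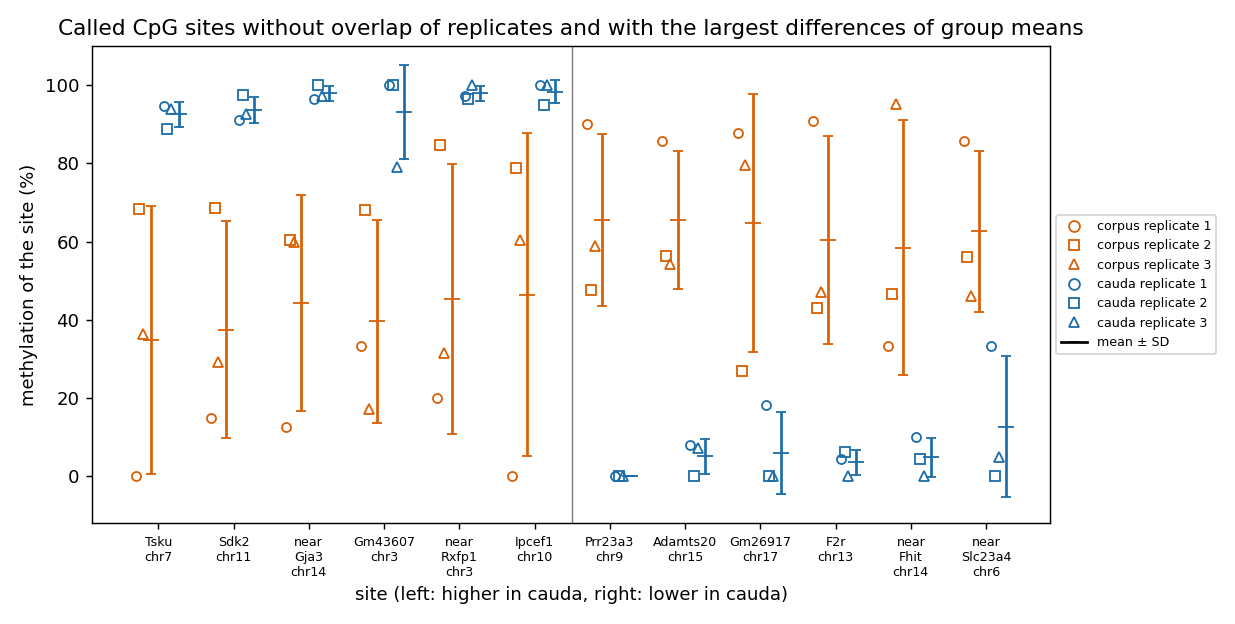
Methylation (percent) of the 12 named DMS in each corpus and cauda sample, with 1 symbol per sample and bars for the mean ± SD of 3 samples. The cauda samples lie between 79.2 and 100% at the 6 hypermethylated sites and between 0 and 33.3% at the 6 hypomethylated sites, while the corpus samples spread from 0 to 95.2%.

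The reference sequence of GRCm38 is shown for 3 loci of each direction, since they show how sparse or dense the changing CpGs are within short RRBS fragments. Each window is the plus strand and holds 121 bases, the capitals mark the CpGs called in the stated direction, and at least 1 MspI site ccgg lies in each window. The hypermethylated windows are chr7:98354648-98354768 in Tsku, chr11:114015777-114015897 in Sdk2 and chr14:57034329-57034449 near Gja3, and they hold 2, 3 and 4 CpGs.
Tsku: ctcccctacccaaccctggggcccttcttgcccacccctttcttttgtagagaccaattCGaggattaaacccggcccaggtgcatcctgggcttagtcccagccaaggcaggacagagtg
Sdk2: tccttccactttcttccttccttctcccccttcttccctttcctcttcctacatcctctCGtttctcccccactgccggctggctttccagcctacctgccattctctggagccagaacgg
Gja3: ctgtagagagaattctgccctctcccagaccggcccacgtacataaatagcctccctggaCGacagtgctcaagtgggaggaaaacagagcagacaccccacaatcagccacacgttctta

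The hypomethylated windows are chr9:98864457-98864577 at Prr23a3, chr15:94430206-94430326 in Adamts20 and chr13:95604078-95604198 in F2r. They hold 7, 7 and 12 CpGs, of which 2, 3 and 4 were measured, and all of the measured CpGs were called.
Prr23a3: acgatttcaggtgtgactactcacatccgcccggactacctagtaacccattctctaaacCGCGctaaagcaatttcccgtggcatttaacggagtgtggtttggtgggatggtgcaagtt
Adamts20: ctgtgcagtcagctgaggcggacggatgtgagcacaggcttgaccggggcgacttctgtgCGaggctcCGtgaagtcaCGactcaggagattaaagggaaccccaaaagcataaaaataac
F2r: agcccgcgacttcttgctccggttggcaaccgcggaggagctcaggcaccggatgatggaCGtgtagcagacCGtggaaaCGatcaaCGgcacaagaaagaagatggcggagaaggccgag

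Neighbouring DMS formed short runs. With each site within 100 bp of the next, 171 of the 404 hypomethylated DMS fell into 72 runs of at least 2 sites, and 40 of the 174 hypermethylated DMS fell into 18 runs. RRBS sites are clustered, and 60.4% of all autosomal sites, 61.9% of the hypomethylated and 40.2% of the hypermethylated DMS had another site of the table within 100 bp, called or not. Runs of at least 3 sites numbered 16 and 4, and the longest held 5 and 3 sites. Sites of a run share reads and are not independent.

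At the F2r run, chr13:95604138-95604165, the 4 sites averaged 5.48, 8.37 and 0% in cauda and 88.8, 42.1 and 47.1% in corpus, and the groups were apart at each site. A run of 5 sites at chr16:17137357-17137388, within 2 kb of the start of Gm6440, averaged 3.8, 0 and 13.3% in cauda and 28.9, 44.4 and 54.4% in corpus. Gm6440 is a processed pseudogene, a copy of another gene's transcript, so that its reads are uncertain. These values were also apart at each of the 5 sites, and the caput mean was 76.9 ± 16% (SD, n = 3).

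Between genes at chr13:112057856-112057898, 5 sites averaged 10.5, 4.54 and 4.56% in cauda and 5.84, 46.3 and 68.1% in corpus. Corpus replicate 1 lay among the cauda samples there, so that no site of this run was free of overlap. The 5 sites of chr18:80162867-80162893, at another processed pseudogene, averaged 3.81, 6.03 and 0% in cauda and 12.1, 46.5 and 45.9% in corpus, where corpus replicate 1 was again the lowest. In the run of 5 sites at Gm26917, chr17:39844767-39844791, the values were 22.9, 40.8 and 11.3% in cauda and 66.8, 36.4 and 60% in corpus, and they overlapped.

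Hypermethylated runs were shorter. The 3 sites at chr3:121713551-121713565 by Gm43607 averaged 100, 100 and 86.1% in cauda and 55.6, 73.1 and 27.1% in corpus. In an exon of Tars, the gene of threonyl-tRNA synthetase, 3 sites at chr15:11383930-11383947 averaged 100, 93.8 and 100% in cauda and 71.2, 58.3 and 58.3% in corpus. The groups were apart at each of the 3 Tars sites. At chr1:137182660-137182670, between genes and nearest to Nr5a2, 3 sites averaged 99.2, 100 and 100% in cauda and 27.3, 61.9 and 100% in corpus. Corpus replicate 3 was as high as the cauda samples there. The run of 3 sites at chr19:14426634-14426666, nearest to Tle4, overlapped as well, at 82.6, 86.7 and 54.4% in cauda and 65.2, 39.8 and 18.2% in corpus. A pair of sites at chr15:36892707-36892724, nearest to Ywhaz, averaged 98.6, 91.9 and 100% in cauda and 22.7, 87.8 and 30% in corpus, and the groups were apart at 1 of the 2.

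The gene lists were read against the shares of all autosomal sites, 1.25% hypermethylated and 2.90% hypomethylated. Of 44 germline genes, 11 had 27 autosomal sites, of which 6 (22.2%) were hypomethylated and 0 hypermethylated in cauda. The median difference of their sites was -8.93 percentage points, and that of all autosomal sites was 0. Mean methylation of the 27 sites was 44.2, 46.4 and 45.4% in cauda and 53.1, 60.6 and 53.7% in corpus, with a testicular mean of 44.9%. All corpus samples of this list lay above all cauda samples. The promoter of Tex101, a germ cell surface glycoprotein gene, had a site at chr7:24672021 with no methylated read in the 3 cauda samples and 40, 39.1 and 16.7% methylation in corpus, from 14 to 46 reads over the 6 samples. Its second site, at chr7:24672007, had 0% in the cauda samples and 20, 37 and 16.7% in corpus. The 3 sites of D1Pas1, a DEAD-box helicase gene of male germ cells, averaged 0, 0 and 4.85% in cauda and 20.7, 56.8 and 0% in corpus. The groups overlapped at D1Pas1, since corpus replicate 3 was at 0%. Tdrd6, a gene of the chromatoid body, held the remaining DMS at chr17:43628478, with 4.55, 20 and 33.3% in cauda and 25, 44.4 and 57.7% in corpus, which overlapped. Thus only the 2 Tex101 sites were free of overlap, and D1Pas1, with 3 of the 6 DMS, is a locus that the study chose on these samples.

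The 3 promoter sites of Dazl, an RNA-binding protein gene needed for germ cells, had 2.38, 5.78 and 2.81% methylation in cauda and 33.8, 25.5 and 11.7% in corpus, with no site called. All corpus samples lay above all cauda samples, and the Dazl example was chosen after its values were seen.

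Developmental regulators, mainly transcription factors and signals of the embryo, held DMS in both directions. Their 281 sites in 96 genes held 6 hypermethylated (2.14%) and 3 hypomethylated DMS (1.07%), beside 1.25 and 2.90% of all autosomal sites, and the median difference was 0. The 4 largest differences among their DMS were at Hoxd4, Gata2, Wnt10a and Gata4. The site at chr2:74721843, within Hoxd3 and in the promoter of Hoxd4, had 92.3, 100 and 100% methylation in cauda and 55, 67.4 and 60.4% in corpus. Gata2, a factor of blood cell precursors, had a promoter site at chr6:88203156 with 90.5, 90.3 and 82.1% in cauda and 43.8, 55.2 and 63.3% in corpus. In an intron of Gata4, a factor of heart and gonad, chr14:63265425 had 87.5, 93.3 and 94.4% in cauda and 75, 46.2 and 56.2% in corpus. The groups were apart at these 3 sites. The site in an exon of the ligand gene Wnt10a, chr1:74804010, went the other way, with 0, 6.67 and 14.8% in cauda and 12.5, 41.5 and 66.7% in corpus, and overlapped.

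Zinc finger genes, many of which encode DNA-binding repressors, had 209 sites in 88 genes, with 2 hypermethylated (0.957%) and 6 hypomethylated DMS (2.87%), close to the shares of all autosomal sites. At chr16:43547327 in an intron of Zbtb20, methylation was 90.2, 100 and 100% in cauda and 0, 76.7 and 84.2% in corpus, where the value of 0 came from 10 reads. At chr7:24228304 in an exon of Zfp109, it was 0, 0 and 17.5% in cauda and 75, 40 and 23.8% in corpus. At chr7:80048858 in an intron of Zfp710, it was 45.1, 84.4 and 75.5% in cauda and 18.2, 32.4 and 44.1% in corpus. The pooled differences at these 3 sites were 17.3, -23.5 and 24.9 percentage points without corpus replicate 1, under the threshold, and 28.2, -31.4 and 27.7 with all samples. The site at chr7:80875618 in an exon of Zscan2 had 0% in the cauda samples and 55, 41.7 and 0% in corpus. Zscan2 held 4 of the 6 hypomethylated DMS of this list in 1 run, and the groups overlapped at each of them.

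Genes of the sperm flagellum and motility had 43 sites in 14 of 48 genes, with 0 hypermethylated and 2 hypomethylated DMS (4.65%, beside 2.90% of all autosomal sites) and a median difference of 0. The site of Dnah5, an axonemal dynein gene, at chr15:28244958 had 1.96, 0 and 8.82% in cauda and 29.6, 31.6 and 51.6% in corpus. The promoter site of Cfap43, a gene of the sperm tail, at chr19:47836842 had 0, 2.42 and 0.617% in cauda and 35.8, 28.1 and 16.9% in corpus. Both were covered by at least 27 reads in each sample, and the groups did not overlap. The Cfap43 pooled difference without corpus replicate 1 was -23.4 percentage points, just under the threshold, and -26.3 with all samples.

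Imprinted genes and the methylation machinery had few sites in the table. Among 30 maternally imprinted genes, 10 had 19 sites, with 0 hypermethylated and 1 hypomethylated DMS (5.26%, beside 2.90% of all autosomal sites) and a median difference of -2.11 percentage points. This DMS, in an exon of Peg10 at chr6:4755947, had 81, 54.5 and 70.3% in cauda and 100, 82.9 and 100% in corpus, with a testicular mean of 83.3 ± 9.62% (SD, n = 3). Its pooled difference was -26.4 percentage points and, without corpus replicate 1, -24 and under the threshold. The 7 sites of 3 paternally imprinted genes and the 9 sites of 3 genes of the methylation machinery held 0 DMS, beside 4.15% of all autosomal sites called in either direction, with median differences of -0.775 and 0.0696 percentage points. For Tet1, which encodes a methylcytosine dioxygenase, 5 sites averaged 54, 52.7 and 50.9% in cauda and 56.7, 64.4 and 62.4% in corpus. Dnmt3a, a de novo methyltransferase gene, averaged 98.1, 97.1 and 97.5% in cauda and 95, 96.3 and 96.4% in corpus over 3 sites. Methylation of a gene is not its expression.

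Markers of other epididymal cells were read as methylation. The 24 sites of 6 of 31 epithelial genes had mean methylation of 49, 46.1 and 42.7% in cauda and 48.4, 44.2 and 34% in corpus, and held 1 hypermethylated DMS (4.17%, beside 1.25% of all autosomal sites) and 0 hypomethylated DMS (beside 2.90%). Among so few sites, 1 DMS does not set this list apart from all autosomal sites. The DMS lay in the promoter of Krt18, a keratin gene of simple epithelia, at chr15:102029511, with 100, 95.2 and 100% in cauda and 70, 75 and 75% in corpus. The 5 sites of Krt18 averaged 93.1, 93.5 and 86.4% in cauda and 67.8, 76.7 and 69.8% in corpus. The groups were apart at Krt18 and overlapped at every other gene of this list. The 3 sites of 2 of 14 leukocyte genes averaged 96.8, 95.8 and 93.1% in cauda and 73.4, 95.7 and 91% in corpus, with 0 DMS. At the 1 site of Runx3, a transcription factor gene of T cells, corpus replicate 1 had 27.3% and the other corpus samples 90.9 and 95.8%. Coverage there was 11 to 24 reads, and the cauda samples had 95.8, 100 and 100%. At the 2 sites of Cx3cr1, the other leukocyte gene, the groups overlapped, with means of 93.6% in cauda and 94.4% in corpus. The 14 sites of 4 of 16 genes of smooth muscle, fibroblasts and endothelium averaged 25.7, 27.9 and 27.8% in cauda and 26.8, 37.6 and 38.5% in corpus. Their median difference was -8.83 percentage points, and 8 of the 14 sites lie in Cald1, which the study chose on these samples. Their DMS, 1 hypomethylated site (7.14%, beside 2.90% of all autosomal sites) in an intron of the fibrillar collagen gene Col3a1 at chr1:45331961, had 1.61, 0 and 2.02% in cauda and 35.3, 23.3 and 27.7% in corpus. Without corpus replicate 1, the pooled differences at Krt18 and Col3a1 were 23.7 and -23.9 percentage points, just under the threshold, and with all samples 25.3 and -26.4. In the list with Col3a1, the groups overlapped at Cald1, Myh11 and Pecam1. At Myh11 the means went the other way, at 56% in cauda and 44.9% in corpus. The part of other cells in these differences was not tested.

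The genes named for loci that the study examined across segments were matched by symbol, and 9 of 15 had 27 sites in the gene or within 2 kb of its start, with 0 hypermethylated and 3 hypomethylated DMS (11.1%, beside 2.90% of all autosomal sites), the latter all at D1Pas1. The study chose loci of this list on these samples, other than H19 and Apoa1, so the count is no independent evidence. A site matched by gene need not lie in the study's own region, and those of Nfatc2, Notch2 and Ankrd36 lie outside it. The sites of Cald1 run from chr6:34755722 to chr6:34761744, and the last lies outside the study's region. Their mean is thus not the level of that region. Over the 8 sites of Cald1, which encodes caldesmon, cauda samples had 12.8, 13.1 and 13.8% and corpus samples 12.5, 20.9 and 30.4%, and the groups overlapped. Over the 6 sites of Susd1, cauda samples had 64.5, 42.4 and 48.4% and corpus samples 45.2, 38.7 and 42.1%, which also overlapped. The 2 sites of Ldb3 had 2.27, 2.08 and 10% in cauda and 2.17, 1.92 and 0% in corpus, and the groups overlapped.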

How the data were processed

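The authors trimmed RRBS reads with Trim Galore 0.4.1 and aligned them with Bismark 0.16.1 to GRCm38, per the submitters' processing notes. Their deposited count table gives whole-number read counts for each sample and CpG: all reads, methylated and unmethylated, without normalization. All 36 of its per-sample columns were assigned to samples. The columns of methylated and of all reads were analysed, and unmethylated reads were taken as their difference. The 6 deposited lists hold the authors' own comparisons with testicular spermatozoa and were not used. All 14149 sites lie on a CpG of the reference, and each has at least 10 reads in each sample. The 232 sites on X and Y entered the adjustment of p-values and no count.

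Percentages were 100 times methylated reads over all reads. DMS came from logistic regression on reads pooled per group (likelihood-ratio test, two-sided, no overdispersion term), Benjamini-Hochberg adjusted over 14149 sites, called below an adjusted p of 0.01 where pooled methylation differed by more than 25 percentage points. The regression and both thresholds follow the study's methods, while Benjamini-Hochberg replaced the SLIM method. Only the 14149 sites covered in every sample were tested, and the study's own set of sites may differ. Values per sample were compared by exact two-sided permutation tests (20 assignments). Alternatives used limma 3.58.1 on log2 ratios of methylated to unmethylated reads with a pseudocount of 1, edgeR 4.0.16, and the settings named in the closing section. Further alternatives were an adjusted p under 0.001, all chromosomes, class bounds of 10 and 90%, caput replicates 2 and 3 only, and runs within 50 bp. Scripts ran in Python 3.11.15 (numpy 2.4.6, pandas 2.3.3, scipy 1.17.1, matplotlib 3.10.9) and R 4.3.3, with samtools 1.23.1, and were tested on simulated data. Gene classes came from GENCODE M21, with precedence promoter, exon, intron, intergenic, and sequences from RefSeq GRCm38.

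Named loci were, per direction, the 6 with the largest difference among DMS without overlap of the replicates (sites within 1 kb counted once), the 5 runs with the most DMS, the genes of the study's loci (matched by symbol), and at most 4 DMS per gene list. Members and lists were chosen with earlier results of these data known. Samples that share only a replicate number were not treated as pairs.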

Additional observations from a re-analysis of the deposited data

How the results depend on the processing

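Under the alternatives, 110 values of the main results kept their direction (counts within 1.5 times, shares within the Wilson interval), 25 counts or shares moved further and 1 mean changed sign. The means that kept their sign still moved: leaving out 1 sample at a time, the difference over all autosomal sites was -1.48 to -0.215 percentage points and that at sites intermediate in testis -4.99 to -1.23. Runs of at least 3 DMS numbered 21 to 30, beside 20 with all samples. For the 12 named sites, 83 values kept their direction and call and 1 lost its call, and the differences at Ipcef1 and near Fhit fell by over 1.5 times without corpus replicates 1 and 3. Leaving out 1 sample at a time gave 156 to 326 hypermethylated and 363 to 524 hypomethylated sites, and 59 and 138 DMS were called in all 6 of these fits. The share of DMS without overlap was then 77.4 to 89.7%, beside 15.3 to 19.6% of all autosomal sites under the same settings. That of DMS with the testicular level nearer to cauda was 89.3 to 95.9%, beside 64.1% of untied autosomal sites with all samples. Near Rxfp1, the pooled difference of 21.9 percentage points without corpus replicate 3 was under the threshold, with a difference of means of 45.6. The pooled difference there rose to 70.4 percentage points without corpus replicate 2. With at least 20 reads in each of the 6 samples, there were 43 hypermethylated and 158 hypomethylated sites, 87.1% without overlap (15% of all 5490 such sites), 31.8% in promoters (44.9%) and 6 runs of at least 3 sites. Above 40 percentage points there were 19 and 46 sites, 83.1% without overlap (11.2% of all autosomal sites), and 1 such run. The testicular level was nearer to cauda at 96.9% of these sites, beside 64.1% of untied autosomal sites. With promoters of 1 kb on either side, 20.8% of DMS and 37.0% of all autosomal sites lay in promoters. The calls of limma were 46 and 89, and those of edgeR 2 and 4. The mean over all autosomal sites turned to 3.85 percentage points with pooled reads. Its size rested largely on corpus replicate 1, at 41.4%, beside 52.4 and 48.8% in corpus replicates 2 and 3. For these values the cause was not tested, other than fewer sites or samples entering by construction.

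With the replicate number as a replicate block, 177 and 399 sites were called. After removal of group means, same-numbered cauda and corpus samples correlated across sites at 0.0592, 0.0243 and 0.0447, each the highest of its cauda sample, and no label states a pairing. Chosen after seeing the data were the difference of the mean percentages (209 and 367 sites) and counting each 100-bp window once (153 and 317). The low coverage of corpus replicate 1 limits the precision of its values.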
